A study of Mus musculus with 8 samples.

Results

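The genes described here are 47 mouse genes of NRF2 signalling and antioxidant defence. They were found by symbol among the 54418 Ensembl genes of a deposited RNA sequencing count table, from a list that covers the NRF2 regulators, inducible cytoprotective genes, glutathione synthesis, thioredoxins, peroxiredoxins, superoxide dismutases, catalase, glutathione peroxidases, the pentose phosphate pathway, ferritin, the omega, kappa, zeta, theta and microsomal glutathione transferases and the sestrin gene Sesn3. A filter on low counts kept 46 of the 47 among 16011 genes tested, and left out Mgst2. The cells were melanocyte stem cells, which renew the pigment cells of the hair follicle, sorted from mouse back skin at postnatal day 21 as live, non-autofluorescent cells with Dct-driven GFP. The 4 control libraries came from Bmi1fl/fl mice with Dct-rtTA and TRE-H2B-GFP, and the 4 Bmi1-deleted libraries from Bmi1fl/fl mice that carried Tyrosinase-Cre beside the same reporter alleles. All mice had a mixed C57Bl-6 and 129Sv background and were fed doxycycline pellets. Cre was driven by the Tyrosinase promoter of pigment cells, and no Cre is listed for the controls. The labels do not tie each library to its own animal, so every p-value measures only the spread between these libraries, which may be technical.

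NRF2, encoded by Nfe2l2, is a transcription factor that cells use to answer oxidants and reactive chemicals. In resting cells the adaptor KEAP1 holds it and marks it for breakdown through a cullin ligase. When reactive compounds modify KEAP1, NRF2 accumulates, pairs with small MAF proteins and binds antioxidant response elements at genes of glutathione and thioredoxin metabolism, heme breakdown and NADPH supply, while BACH1 competes for the same sites. Melanocytes carry an oxidant load of their own, because melanin synthesis yields hydrogen peroxide and quinones.

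The libraries held 8882656 to 10368174 counts. Bmi1, the targeted gene, had 705 to 859 counts in controls and 607 to 713 in Bmi1-deleted libraries, a difference that did not pass the test (log2 change −0.26, SE 0.12, edgeR adjusted p = 0.607). No source used here gives which part of Bmi1 is deleted, so a count over the whole gene is a weak check of the labels. Cdkn2a, a gene that Bmi1 is known to keep silent, had 0 counts in the control libraries and 38 to 85 in the Bmi1-deleted libraries. All 8 melanocyte markers were present in every library, with Dct at 1966 to 6451 CPM (counts scaled to a common library size, here by the TMM method of edgeR). The summed level of these markers was 8639.7 to 14536 CPM in controls and 4867 to 10296 in Bmi1-deleted libraries. RNA typical of other cell types was present too. The summed level of 17 fibroblast markers was 4731 to 8079 CPM in controls and 7723 to 17510.5 in Bmi1-deleted libraries, and that of 4 Schwann cell markers 1827 to 3195 and 3328 to 4344. Col1a1, Col1a2 and Col3a1 made up most of the fibroblast sum in every library. Keratinocyte markers summed to 1693 to 2102 and 1426 to 2425 CPM, endothelial markers to 10.4 to 26.9 and 18.7 to 67.4, immune markers to 28.8 to 45.3 and 39.5 to 76.6, and hemoglobin genes to 0.319 to 32.1 and 11.8 to 82.5. Cdh1, at 463 to 871 CPM, was the largest single part of the keratinocyte sum in every library. In bulk libraries, fewer cells of a type and less RNA per cell cannot be told apart. No marker of these lists was at 0 in all libraries. The fibroblast marker Pdgfra stood at 1.02 to 15.8 CPM, and Dpt, another, at 0.106 to 7.61.

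The 47 genes covered a wide span of levels, and 45 of them had at least 1 count in every library. As a measure of the depth behind each gene, its mean CPM over all libraries was taken, and by it 12 stood under 10, 28 between 10 and 100 and 7 at 100 or more. To compare genes with each other, the deposited TPM (which also divide by transcript length) were rescaled without Gm23935, a predicted gene that alone held 73.7% to 85.6% of the TPM of a library. On that scale the heavy ferritin chain Fth1 had the highest level of the 47 genes in control cells, 1339.6 ± 101.5 TPM (SD, n = 4), followed by the light chain Ftl1 with 635 ± 135, the peroxiredoxin gene Prdx1 with 355 ± 67.7, and Gpx4, which reduces lipid peroxides, with 215 ± 49.0. Txnrd1, Sod1 and Nfe2l2 followed at 205 ± 51.7, 201 ± 22.1 and 146 ± 17.4 TPM. The means of neighbours from Gpx4 to Sod1 lay closer to each other than their SDs. Nqo1, often used as a readout of NRF2 activity, had the lowest control level, 2.18 ± 1.31 TPM, within its SD of the next 2 genes, Mgst2 and Mgst3 (2.47 and 2.93).

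**Figure D1:**
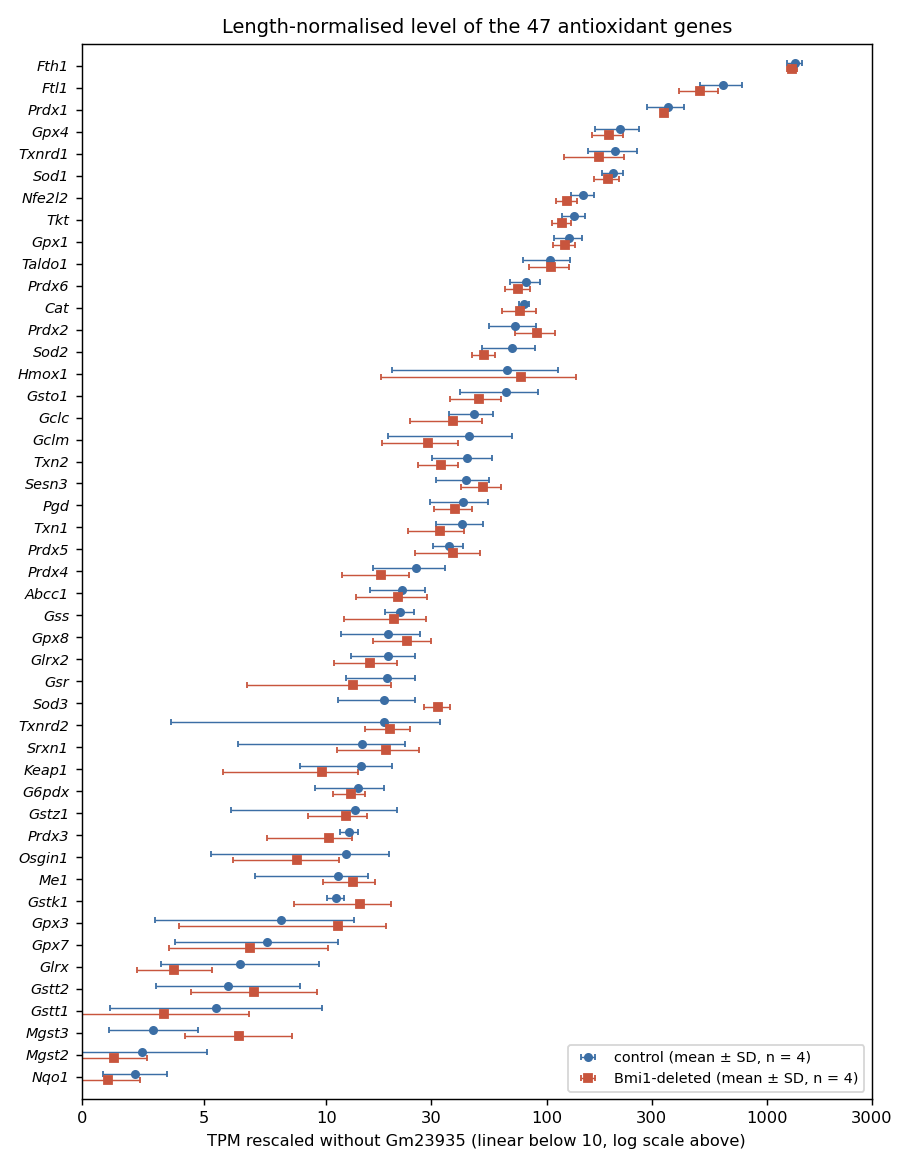
Mean level of each of the 47 genes in control and Bmi1-deleted libraries (TPM rescaled without Gm23935, linear below 10 and on a log scale above; bars are the SD over 4 libraries). Ferritin leads at 1339.6 TPM for Fth1 in control cells, Nqo1 is lowest at 2.18, and the means of the groups lie close together for most genes.

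The level of these genes was measured to compare cells with and without a Cre that deletes Bmi1. No gene of the set passed that comparison. By the edgeR quasi-likelihood test, 0 of the 46 tested genes rose and 0 fell at an adjusted p under 0.05, where 0.0937% of all 16011 tested genes passed (0.0874% higher and 0.00625% lower). At an unadjusted p under 0.05 there were 3 (6.52%, against 8.27% of all tested genes), the extracellular superoxide dismutase gene Sod3, the sulfiredoxin gene Srxn1 and the efflux pump gene Abcc1. The groups did not overlap for 2 of the 46 genes (4.35%, against 5.18% of all tested genes). Sod3 was higher in Bmi1-deleted libraries (2.79% of all genes) and Abcc1 lower (2.39%). DESeq2 called 1 member, Sod3 (0.775% of all genes it tested), as did edgeR with the replicate number of the labels as a block (2.17% of members, against 2.41% of all tested genes). limma on the deposited log2 TPM called 0 (0.025% of all genes). Without the filter on low counts edgeR called Sod3 (adjusted p = 0.000207) and Srxn1 (0.0480), where 1.09% of all genes passed. Their log2 changes there, 0.84 and 0.89, were those of the main fit, in which the edgeR adjusted p-values were 0.218 and 0.484. What lowered the p-values without the filter was not tested. The median log2 change of the 46 genes was −0.05 and that of all tested genes 0.01. Of the members 19 had a log2 change above 0 (41.3%, against 50.7% of all tested genes) and 27 below. On the deposited log2 TPM 11 members were above 0 and 35 below, with a median of −0.28 for the members and −0.14 for all tested genes. The share of all tested genes above 0 on that scale was not counted. The TPM tested by limma were not rescaled without Gm23935. That gene held 73.7% to 85.5% of the TPM in controls and 82.7% to 85.6% in Bmi1-deleted libraries, which bears on the sign of every other gene. Of the 28 named and tested members 15 changed sign under at least 1 other setting, and none of these values passed the test.

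**Figure D2:**
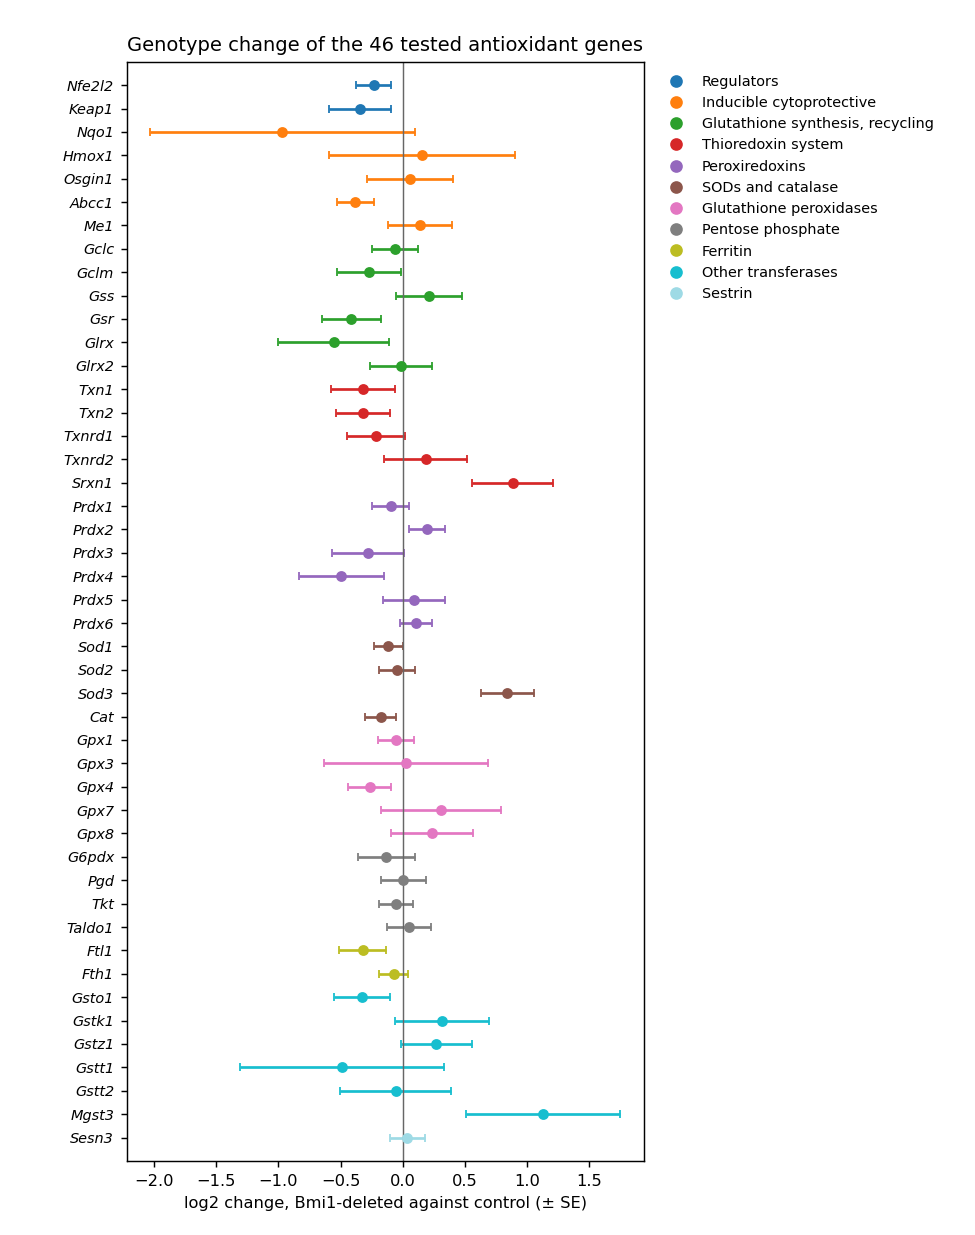
The log2 change of each of the 46 tested genes in Bmi1-deleted against control libraries, with its SE, ordered and coloured by subpathway. Most points lie within 0.5 of zero, and the values farthest above zero belong to Mgst3 (1.13), whose SE is wide, Srxn1 (0.89) and Sod3 (0.84).

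Among the regulators, Nfe2l2 (chromosome 2, 75675513 to 75704641, mm10) stood at 191, 155, 209 and 236 CPM in control libraries 1 to 4 and at 150.3, 149.6, 183 and 189 in Bmi1-deleted libraries 1 to 4. It was lower in the Bmi1-deleted library of each same-numbered pair, but the groups overlapped (log2 change −0.23, SE 0.14, adjusted p = 0.746). How many of all tested genes go the same way in all 4 pairs was not counted, here and for the genes below. With a score of fibroblast markers as a covariate the change of Nfe2l2 was −0.011. Keap1, the sensor that restrains NRF2, had 18.1, 12.6, 19.2 and 21.3 CPM in controls and 16.8, 13.0, 16.3 and 9.75 in Bmi1-deleted libraries. Its groups overlapped as well, and its adjusted p was 0.808.

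Of the 5 inducible cytoprotective genes, Abcc1, which pumps glutathione conjugates out of the cell, was the one with separate groups in CPM. Its control libraries had 73.5, 65.9, 64.7 and 66.4 CPM and its Bmi1-deleted libraries 54.6, 64.4, 42.5 and 46.4. The highest Bmi1-deleted value, of library 2, lay just under the lowest control value, of library 3. The means were 67.6 ± 3.99 and 52.0 ± 9.70 CPM (SD, n = 4; log2 change −0.38, SE 0.15, unadjusted p = 0.0238, edgeR adjusted p = 0.518), and the adjusted p with the replicate block was 0.201. Hmox1, which encodes the heme-degrading enzyme heme oxygenase, had 23.2, 24.0, 65.9 and 103 CPM in controls and 19.5, 27.7, 76.4 and 117 in Bmi1-deleted libraries. The genotypes overlapped (log2 change 0.16, SE 0.75, adjusted p = 0.985), and libraries 3 and 4 stood above libraries 1 and 2 in both. With a fibroblast marker score of each library as a covariate the log2 change was 1.51 (SE 0.38, unadjusted p = 0.00342, edgeR adjusted p = 0.220). That score was itself 4.90 to 5.72 in controls and 5.17 to 6.86 in Bmi1-deleted libraries. The replicate block gave a Hmox1 change of 0.10 (SE 0.14, edgeR adjusted p = 0.876). Nqo1, a quinone reductase, had few counts, with 2.87, 0.927, 0.856 and 2.72 CPM in control libraries and 1.21, 2.38, 0.111 and 0 in Bmi1-deleted libraries. A count of 0, as in Bmi1-deleted library 4, allows up to 3 counts, or 0.289 to 0.338 CPM at these depths (counting error only). The SE of its log2 change was 1.06, and with the fibroblast score as a covariate the change was −4.28 (SE 1.70, unadjusted p = 0.0225, edgeR adjusted p = 0.394). The replicate block gave a Nqo1 change of −1.69 (SE 1.27, edgeR adjusted p = 0.694). Osgin1, an oxidative stress-induced growth inhibitor gene, ranged from 4.98 to 14.8 CPM, and Me1, a cytosolic malic enzyme that makes NADPH, from 14.6 to 31.4, both with overlapping groups.

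Glutathione synthesis and recycling showed no change that passed. Gclc and Gclm encode the catalytic and modifier subunits of glutamate-cysteine ligase, the rate-limiting enzyme of glutathione synthesis. Gclc had 52.1, 57.3, 69.2 and 72.9 CPM in controls and 51.8, 50.3, 54.6 and 84.2 in Bmi1-deleted libraries, where library 4 stood apart from the other 3. Gclm had 15.3, 26.6, 25.0 and 40.4 CPM in controls and 24.8, 17.7, 23.0 and 23.6 in Bmi1-deleted libraries, with the Bmi1-deleted values inside the span of the controls. Gss, glutathione synthetase, had the highest log2 change of the subpathway (0.21), with 18.0, 11.2, 16.6 and 13.9 CPM in controls and 11.9, 24.0, 19.8 and 13.4 in Bmi1-deleted libraries. It overlaps Acss2 on the opposite strand, and no source used here gives whether the counting used strand. Glrx, a glutaredoxin, had the lowest change (−0.56), with 5.63, 4.53, 3.42 and 4.86 CPM in controls and 2.21, 4.37, 3.56 and 2.38 in Bmi1-deleted libraries. Gsr, which regenerates reduced glutathione, and the mitochondrial glutaredoxin Glrx2 ranged over 12.4 to 27.7 CPM and 11.8 to 23.5 CPM in all libraries, with log2 changes of −0.41 and −0.01. All 6 genes had overlapping groups and adjusted p-values of 0.729 to 0.994.

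In the thioredoxin system, which reduces oxidised protein cysteines with NADPH, Srxn1 had the highest change and Txnrd1 the highest TPM. Srxn1 (chromosome 2, 152105516 to 152111376) encodes sulfiredoxin, which repairs overoxidised peroxiredoxins. It had 8.29, 9.99, 10.7 and 24.4 CPM in control libraries and 30.3, 17.6, 28.0 and 22.7 in Bmi1-deleted libraries. Control library 4 stood with the Bmi1-deleted libraries, while the other 3 controls lay below all of them. The log2 change was 0.89 (SE 0.33, n = 4, unadjusted p = 0.0183, edgeR adjusted p = 0.484), and 0.112 was its adjusted p with the block. With the block and without pair 4, which holds that control, the change was 1.35 (adjusted p = 0.0399). Srxn1 was not called with the block and without pair 1, 2 or 3. On the deposited log2 TPM, not rescaled without Gm23935, the Srxn1 change was 0.15.

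Txnrd1, the cytosolic selenoprotein thioredoxin reductase, had 186, 195, 278 and 318 CPM in controls and 154, 163, 244 and 281 in Bmi1-deleted libraries. It was lower in the Bmi1-deleted library of all 4 pairs, and the groups overlapped (log2 change −0.21, SE 0.23, adjusted p = 0.900, with the block 0.333), and with a fibroblast marker score as a covariate the change was 0.29. Txn1, the cytosolic thioredoxin, had 15.3, 20.8, 22.7 and 29.98 CPM in controls and 20.2, 15.7, 23.0 and 12.02 in Bmi1-deleted libraries, groups that overlapped (adjusted p = 0.832). The mitochondrial pair Txn2 and Txnrd2 ranged over 17.3 to 34.5 CPM and 4.99 to 8.84 CPM, with log2 changes of −0.32 and 0.18. Eid3 lies within Txnrd1 on the same strand, so some of its reads may be shared out between these genes.

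Short promoter stretches are shown for members that hold the core of the antioxidant response element, TGACNNNGC, because NRF2 is known to act through it. RefSeq promoter windows (GRCm38.p6, 250 bases before to 50 after each start) were found for 40 of the 47 genes, and 9 of the 40 (22.5%) held the core on either strand, against 14.0% of all 27025 genes in the table. The 9 were Nfe2l2, Srxn1, Gclm, Prdx1, Pgd, Me1, Txnrd1, Sod1 and G6pdx. A match is a description of letters and does not show binding. The stretches below run 5′ to 3′ on the strand of the gene, reach 20 bases to each side, lie before the start and outside GENCODE exons, and have the match in capitals, here always the core read on the other strand, GCNNNGTCA.
Txnrd1, chr10:82859094-82859142, + strand, within a longer Txnrd1 gene model: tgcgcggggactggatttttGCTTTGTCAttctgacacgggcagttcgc
Prdx1, chr4:116685446-116685494, + strand: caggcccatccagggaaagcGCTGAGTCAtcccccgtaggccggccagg
Gclm, chr3:122245403-122245451, + strand: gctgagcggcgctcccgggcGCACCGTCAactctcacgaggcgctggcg
Sod1, chr16:90220686-90220734, + strand: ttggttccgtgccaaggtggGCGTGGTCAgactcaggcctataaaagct
Only the Prdx1 match of these 4 also holds TGANTCA, the site of AP-1 factors. Windows for Abcc1, Gclc, Gsr, Gstt2, Hmox1, Prdx6 and Sod3 were not used here.

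Peroxiredoxins, which reduce hydrogen peroxide and are themselves reduced by thioredoxin, had log2 changes from −0.49 to 0.20, 3 above 0 and 3 below. Prdx1, the highest of them in TPM, had 145, 140.4, 184 and 219.6 CPM in controls and 142, 161, 165 and 176 in Bmi1-deleted libraries. The Bmi1-deleted values lay within the control range. Prdx2 had 52.1, 41.5, 40.7 and 53.6 CPM in controls and 49.9, 55.8, 50.5 and 59.1 in Bmi1-deleted libraries (log2 change 0.20, adjusted p = 0.817). This gene overlaps Junb on the opposite strand, which had 41392 counts over the 8 libraries against 3736 for Prdx2. Prdx4, the peroxiredoxin of the endoplasmic reticulum, had 9.35, 17.2, 8.35 and 15.5 CPM in controls and 8.83, 10.6, 11.6 and 4.76 in Bmi1-deleted libraries (log2 change −0.49, adjusted p = 0.804). Prdx6, a 1-cysteine peroxiredoxin, was higher in the Bmi1-deleted library of all 4 pairs but by little (52.7 ± 3.43 against 56.8 ± 2.58 CPM, SD, n = 4, log2 change 0.11). The mitochondrial Prdx3 and the mitochondrial and peroxisomal Prdx5 ranged over 5.33 to 11.2 CPM and 9.86 to 20.4 CPM, with log2 changes of −0.28 and 0.09.

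Sod3, the secreted superoxide dismutase that binds to the extracellular matrix, was the member with the smallest p by genotype. Its levels (chromosome 5, 52363791 to 52371418) were 61.0, 34.4, 28.2 and 37.4 CPM in control libraries and 69.9, 86.9, 66.4 and 65.2 in Bmi1-deleted libraries. All 4 Bmi1-deleted libraries lay above all 4 controls, of which control 1 came closest. The means were 40.3 ± 14.3 and 72.1 ± 10.1 CPM (SD, n = 4), a log2 change of 0.84 (SE 0.21, unadjusted p = 0.00168, edgeR adjusted p = 0.218). Sod3 rose in the fit with the replicate number as a block (0.89, SE 0.18, adjusted p = 0.0137), where 1 of 46 members (2.17%) rose and 0 fell, against 1.71% and 0.706% of all tested genes. It also passed with DESeq2 (adjusted p = 0.0439). Without control 1 the gene passed also without a block (1.115, adjusted p = 0.0254). With the block it passed without pair 1 (adjusted p = 0.00321) but not without pair 2, 3 or 4 (adjusted p = 0.157, 0.0803 and 0.100), where the log2 change was 0.74, 0.77 and 0.91. Within replicates 1 and 2 its log2 change was 0.72, and within replicates 3 and 4 0.98.

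Markers of some cell types went mostly in 1 direction between the same groups. Of the 15 tested fibroblast markers 14 had a log2 change above 0 (median 0.96), 0 passed without the block and 7 rose with it. The 8 melanocyte markers went the other way, 7 of them below 0 (median −0.71), with 0 that passed without the block and 7 that fell with it. The 4 Schwann cell markers were all above 0 (median 0.56), with 0 that passed without the block and 3 that rose with it, and their summed levels did not overlap between the groups. Keratinocyte markers were mixed, 5 above 0 and 3 below (median 0.04), with 0 that passed without the block and 1 that rose with it. The tested endothelial and immune markers had 2 above 0 and 1 below in each list, and 0 passed with or without the block. With a fibroblast marker score of each library as a covariate the log2 change of Sod3 was 0.59 (adjusted p = 0.361), against 0.84 without it. Which cells carried the Sod3 RNA was not tested.

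The other genes of this subpathway act inside the cell. Cat, catalase, had 92.5, 85.6, 92.8 and 88.6 CPM in controls and 78.5, 83.9, 67.2 and 88.0 in Bmi1-deleted libraries (log2 change −0.18, SE 0.12, adjusted p = 0.792). It was lower in the Bmi1-deleted library of all 4 pairs, and only Bmi1-deleted library 4 reached into the control range. Sod1, the cytosolic copper and zinc enzyme, was also lower in all 4 pairs, at 74.1 ± 2.82 CPM in controls and 68.4 ± 5.46 in Bmi1-deleted libraries (SD, n = 4, adjusted p = 0.891), with groups that overlapped. Sod2, the mitochondrial manganese enzyme, ranged from 69.4 to 99.2 CPM over all libraries (log2 change −0.05).

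**Figure D3:**
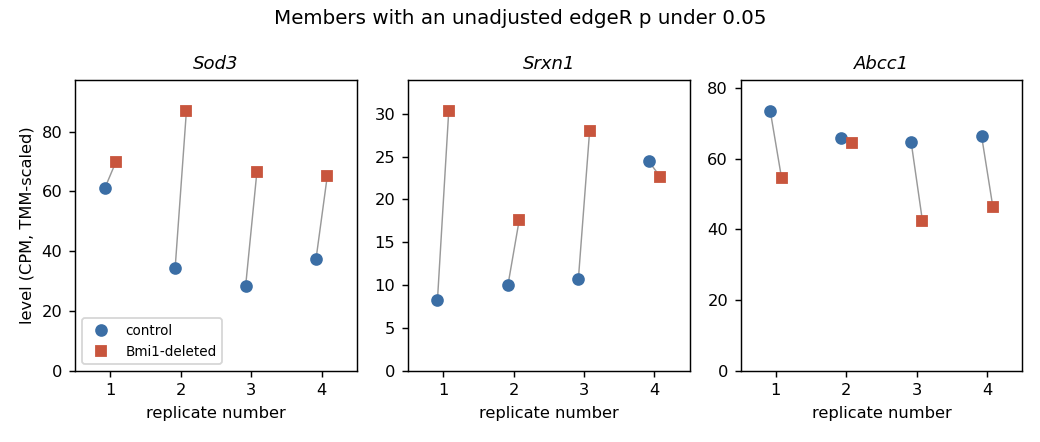
Level in each library of Sod3, Srxn1 and Abcc1, the genes with an unadjusted edgeR p under 0.05, by replicate number (CPM, linear axis from 0; a grey line joins libraries with the same number). All Sod3 values of Bmi1-deleted libraries (65.2 to 86.9 CPM) lie above the controls (28.2 to 61.0), control 4 breaks the order for Srxn1, and Abcc1 is lower in each pair.

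Glutathione peroxidases take their name from the reduction of peroxides with glutathione. Gpx4, the highest of the 5 in TPM, had 66.1, 59.5, 83.9 and 103 CPM in controls and 68.8, 61.1, 55.5 and 74.4 in Bmi1-deleted libraries, with the lowest change of the 5 (−0.26, SE 0.17, adjusted p = 0.774). Its controls spread widely and took in 3 of the 4 Bmi1-deleted values. A pseudogene of Gpx4 in the same table held 7.46% as many counts as the gene, so reads may be divided between them. Gpx7, an enzyme of the endoplasmic reticulum, had the highest change (0.31) at a low level, 5.31, 2.78, 3.74 and 3.51 CPM in controls and 5.07, 7.55, 4.45 and 1.93 in Bmi1-deleted libraries. Gpx8, of the same compartment, ranged over 5.996 to 14.8 CPM (log2 change 0.24). Gpx1, the main cytosolic enzyme, stood at 61.5 ± 8.005 and 59.3 ± 6.86 CPM (SD, n = 4, adjusted p = 0.973). The secreted Gpx3 varied from 1.09 to 13.7 CPM, both within the Bmi1-deleted group.

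The pentose phosphate pathway supplies NADPH to both the glutathione and the thioredoxin cycle, and its 4 genes had the narrowest range of changes among the subpathways with 3 or more genes, −0.13 to 0.05. Tkt, transketolase, had 139.6, 141, 109 and 136 CPM in controls and 141, 146, 108 and 112 in Bmi1-deleted libraries. Library 3 was the lowest of each group. Taldo1, transaldolase, had 70.8, 57.9, 47.4 and 68.9 CPM in controls and 74.6, 71.7, 62.5 and 44.9 in Bmi1-deleted libraries (log2 change 0.05, adjusted p = 0.980). G6pdx, the X-linked gene of the first and committed step, had 16.6, 14.2, 20.4 and 22.6 CPM in controls and 20.3, 15.2, 12.9 and 19.0 in Bmi1-deleted libraries (log2 change −0.13, adjusted p = 0.945). Libraries of both sexes, by their Xist level, were present in each group, and with sex as a covariate no member passed. Pgd, the enzyme of the oxidative decarboxylation, ranged over 33.6 to 54.4 CPM (log2 change 0.0045, SE 0.18).

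Ferritin stores iron and so withholds it from reactions that make hydroxyl radicals. Fth1 had 550.4, 534, 513 and 627 CPM in controls and 524, 597, 502 and 496 in Bmi1-deleted libraries, with groups that overlapped broadly (log2 change −0.07, SE 0.12, adjusted p = 0.941). Ftl1 had 257, 208, 344 and 366 CPM in controls and 186, 207, 260.1 and 287 in Bmi1-deleted libraries. It was lower in the Bmi1-deleted library of each pair, in pair 2 by less than 1 CPM (log2 change −0.32, SE 0.19, adjusted p = 0.736, with the block 0.173), and with the fibroblast score as a covariate the change was 0.07. Its 2 named pseudogenes in the table held 4.44% as many counts as the gene.

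The remaining transferases add glutathione to reactive compounds, and their control means ran from 2.47 TPM for Mgst2 to 65.8 for Gsto1. Gsto1, an omega class enzyme, had 37.8, 30.4, 23.5 and 44.3 CPM in controls and 25.5, 33.7, 19.5 and 29.6 in Bmi1-deleted libraries (log2 change −0.33, adjusted p = 0.796). Mgst3, a membrane-bound transferase, had the highest change of the set, 1.13, but with an SE of 0.62. Its levels were 0.850, 0.927, 3.21 and 1.70 CPM in controls and 3.42, 4.27, 2.00 and 4.99 in Bmi1-deleted libraries, so that control 3 lay within the Bmi1-deleted range (unadjusted p = 0.0899, edgeR adjusted p = 0.688). Gstt1, a theta class enzyme, had 1.06, 0.824, 3.10 and 2.15 CPM in controls and 2.32, 1.19, 1.33 and 0.227 in Bmi1-deleted libraries. It and its neighbour Gstt2 (2.94 to 5.78 CPM) are related in sequence, so the division of reads between them is uncertain. Mgst2 was left out of the test with 3, 2, 4 and 0 counts in control libraries and 2, 1, 4 and 0 in Bmi1-deleted libraries, at or near the 3 counts that a count of 0 allows. Gstk1 and Gstz1, which act in mitochondria and peroxisomes and in tyrosine breakdown, ranged over 4.68 to 10.4 CPM and 8.15 to 16.7 CPM, with log2 changes of 0.31 and 0.27. Sesn3, a sestrin that restrains growth signalling under stress, had 115, 136, 114 and 92.0 CPM in controls and 125, 98.1, 130.3 and 117 in Bmi1-deleted libraries (log2 change 0.04, adjusted p = 0.981).

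Some members differed by the replicate number of the labels. Hmox1 (chromosome 8, 75093621 to 75100589) had 19.5 to 27.7 CPM in the libraries of replicates 1 and 2 of both genotypes and 65.9 to 117 in those of replicates 3 and 4, and these ranges do not overlap. Txnrd1 (chromosome 10, 82833951 to 82897712) had 154 to 195 CPM in replicates 1 and 2 and 244 to 318 in replicates 3 and 4, again without overlap. For Ftl1 the ranges were 186 to 257 and 260.1 to 366 CPM, which nearly met. Nfe2l2 went from 149.6 to 191 CPM in replicates 1 and 2 and from 183 to 236 in replicates 3 and 4, and these overlapped. The share of all tested genes whose replicates 1 and 2 stand apart from replicates 3 and 4 was not counted. A test of the replicate number, added after these values were seen, asked over all genes whether the 4 numbers differed beyond genotype. It called 3 of 46 members (6.52%), against 2.97% of all tested genes. Hmox1 had an adjusted p of 3.34e-05, Txnrd1 of 0.00379 and Ftl1 of 0.0336 (edgeR). Hmox1 and Txnrd1 passed in all 8 fits that each left out 1 library, with highest adjusted p of 0.00199 and 0.0305. Ftl1 passed in 0 of those 8 (adjusted p from 0.0528, without control 1, to 0.159, without control 2). Of these 3, Txnrd1 held the antioxidant response core shown above, the window of Ftl1 did not, and no window was used for Hmox1. The core was in 14.0% of all genes with a window, and a part of NRF2 in these differences was not tested. By replicate number the adjusted p was 0.233 for Nfe2l2 and 0.256 for Gclc, another classic NRF2 target.

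Markers of melanocytes and of fibroblasts differed by replicate number too. The same test called 5 of 8 melanocyte markers, 6 of 15 tested fibroblast markers, 2 of 4 Schwann cell markers, 1 of 8 keratinocyte markers, 1 of 3 tested endothelial markers, and 0 of 3 tested immune markers and 2 tested hemoglobin genes. Summed melanocyte markers stood at 8639.7, 9588, 12537 and 14536 CPM in control libraries 1 to 4 and at 5153, 4867, 8657 and 10296 in Bmi1-deleted libraries 1 to 4, so that replicates 3 and 4 were the higher ones in each genotype. Summed fibroblast markers were 8079, 6647, 5283 and 4731 CPM in controls and 17510.5, 14514, 10092 and 7723 in Bmi1-deleted libraries, with the order the other way round. Most of each fibroblast sum came from Col1a1, Col1a2 and Col3a1, and not every marker followed it. In Bmi1-deleted library 4, Col3a1 and Dpt (3752 and 1.25 CPM) lay above all controls. Dcn, Lum and Pdgfra (1.47, 0.340 and 1.02 CPM) lay below all controls there, and the other fibroblast markers within the control range. The part of these markers in the Hmox1, Txnrd1 and Ftl1 values was not tested. No label says what the replicate numbers share.

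**Figure D4:**
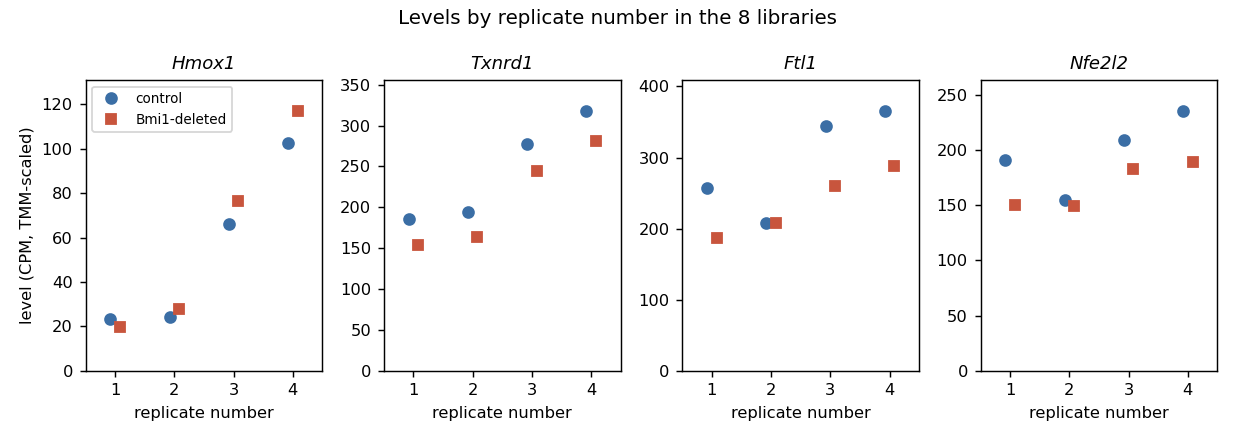
Level of Hmox1, Txnrd1, Ftl1 and Nfe2l2 in each library, by replicate number (CPM, linear axes from 0; circles control, squares Bmi1-deleted). Replicates 3 and 4 lie above replicates 1 and 2 in both genotypes for Hmox1 and Txnrd1, narrowly so for Ftl1, and with overlap for Nfe2l2.

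**Figure D5:**
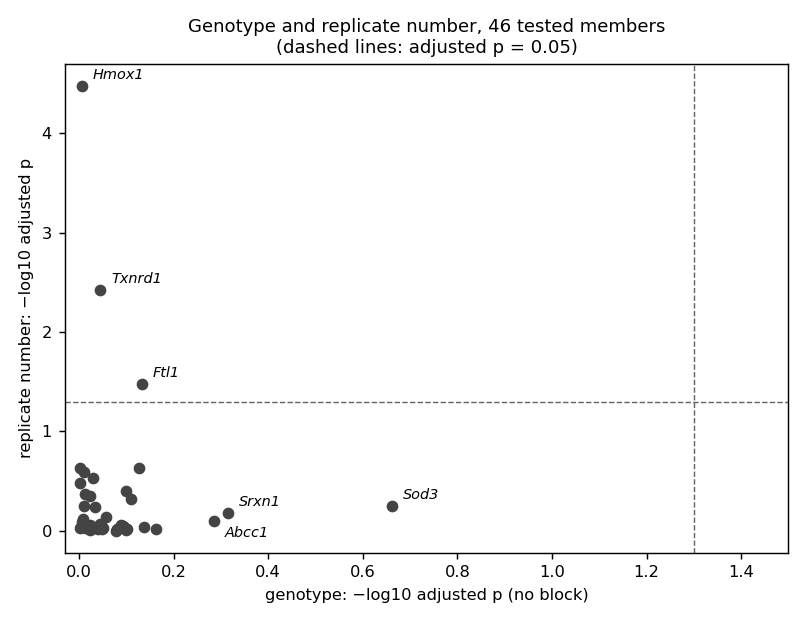
Each of the 46 tested genes by its adjusted p for genotype (x axis, −log10) and for replicate number (y axis, −log10), with dashed lines at 0.05. Hmox1, Txnrd1 and Ftl1 lie above the line for replicate number, and no gene lies past the line for genotype, the nearest being Sod3.

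Other genes of the pathway were taken from a list of 47 symbols that are no members, such as partners and rivals of NRF2, the cystine transporter and methionine sulfoxide reductases. Of the 46 tested identifiers 0 rose and 0 fell (median log2 change −0.01), and 3 had an unadjusted p under 0.05 (Bach1, Bach2 and Ggct), a share of 6.52% against 8.27% of all tested genes. DESeq2 and limma called 0. With the replicate block 1 of the 46 rose (2.17%, against 1.71% of all tested genes), Bach1. Bach1, the repressor that competes with NRF2 for its sites, had 431, 455, 352 and 399.8 CPM in controls and 655, 535, 486 and 478 in Bmi1-deleted libraries. All Bmi1-deleted libraries lay above the controls in CPM, as for 2.79% of all tested genes (log2 change 0.40, SE 0.13, edgeR adjusted p = 0.420, with the block 0.0478). On the deposited log2 TPM, not rescaled without Gm23935, the Bach1 change was 0.07 (limma adjusted p = 0.974). With the block and any 1 pair left out it did not pass (adjusted p from 0.0998 to 0.248), with log2 changes of 0.32 to 0.44. With the fibroblast score as a covariate its change was 0.18 (adjusted p = 0.684). By replicate number 3 of the 46 passed, where 2.97% of all tested genes did. These were Slc3a2, the heavy chain of the cystine transporter (adjusted p = 0.00395), Idh2, which makes NADPH in mitochondria (0.00447), and Sqstm1, which binds KEAP1 (0.00569). Slc3a2 did not pass without control 4 (adjusted p = 0.0533), Idh2 without Bmi1-deleted 2 (0.0585) and Sqstm1 without control 2 (0.0585). Sqstm1 had 309.6, 262, 489.5 and 464 CPM in controls and 288, 284, 394 and 509 in Bmi1-deleted libraries, again with replicates 3 and 4 above replicates 1 and 2. Slc7a11, the cystine-carrying chain, stood at only 0.106 to 11.2 CPM.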

How the data were processed

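The deposited tables gave, for each of the 8 libraries, estimated counts and log2(TPM + 1) per gene, made by the authors with Salmon 1.2.1 on mm10, per the submitters' processing notes. No source used here gives the annotation, strand setting or rounding. RNA (1 ng per library) was amplified by 15 and then 15 cycles of PCR, per the labels, so intervals and floors cover counting error only. Symbols came from GENCODE M21. Genes kept by filterByExpr were scaled by TMM and tested with the quasi-likelihood F test of edgeR 4.0.16 in R 4.3.3, with Benjamini-Hochberg adjustment over the 16011 genes tested. CPM are counts over the TMM-scaled library size of those genes. Alternatives were RLE scaling, other filters, DESeq2 1.42.0, limma 3.58.1 on the deposited log2 values, the replicate number as a block, covariates for sex and for a fibroblast marker score, and leaving out libraries.

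Same-numbered libraries deviated together weakly (correlations of 0.140 to 0.224, and 4 of 8 libraries correlated best with their own number). A fit with the number as a block was therefore run beside the main fit, which has no block. These values do not establish pairs, and no label gives what the numbers share. A pair here means only libraries with the same number. Agreement of the pairs was not counted over all tested genes, so it has no share to be compared with. The test of the replicate number (3 coefficients, edgeR) and its leave-outs were added after seeing the data. Scripts were tested on simulated counts. The members named with the value of every library were 29. Nfe2l2, Keap1, Nqo1, Hmox1, Gclc, Gclm, Txnrd1 and Srxn1 were set by name. The others were picked from these same results, by level, log2 change, unadjusted p, separate groups, the block fit or the count filter. Bach1 and Sqstm1, which are no members, were given by library too. That rule, the members and the lists were chosen with earlier results of these data known.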

Additional observations from a re-analysis of the deposited data

Results flagged for a closer look

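In 58 groups of 4 libraries (29 named genes in 2 genotypes), a library was called far from the others where its gap to the nearest one, as a share of the range of the group, exceeded Dixon's critical value, which chance does in about 1 in 20 groups. There were 2 such libraries. Bmi1-deleted replicate 4 had 84.24 CPM of Gclc, against 50.27 to 54.6 in the other 3 (gap over range 0.873). Control replicate 4 had 24.44 CPM of Srxn1, against 8.289 to 10.7 in the other 3 (0.851).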

How the results depend on the processing

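Without a filter on low counts, 259 genes passed higher and 121 lower, among them the members Sod3 and Srxn1 (2 higher). The replicate block gave 273 and 113, with 1 member higher, and with DESeq2 106 and 52, with 1 member higher. RLE scaling gave 3 lower genes, the stricter filter of 10 CPM in 4 libraries 2, the fibroblast covariate 5 and replicates 3 and 4 alone 6. With replicates 1 and 2 alone, 83 genes passed higher and 73 lower, and with limma on log2(TPM + 1) it was 3 higher genes, with a median of −0.28 over the members. Leaving out 1 library gave 8 to 40 higher and 0 to 5 lower genes and 0 to 1 members higher, the 1 being Sod3 without control 1. The block with 1 pair left out gave 264 higher and 87 lower genes without pair 1, 89 and 24 without pair 2, 153 and 85 without pair 3, and 124 and 65 without pair 4. It called 1 member higher without pair 1 (Sod3) and 1 without pair 4 (Srxn1). The replicate block on all 8 libraries changed no call of a member by genotype but that of Sod3.

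Sign changes of log2 changes, none of which passed the test, were as follows. With the fibroblast score as a covariate the change was 0.30 for Gclc, 0.29 for Txnrd1, 0.13 for Prdx1, −0.50 for Gpx7, −0.32 for Taldo1 and 0.068 for Ftl1. With sex as a covariate the change was −0.24 for Hmox1. With replicates 1 and 2 alone the change was 0.020 for Gclm, 0.085 for Prdx1, 0.048 for Gpx4, 0.20 for G6pdx, 0.030 for Tkt, 0.048 for Fth1, 0.88 for Gstt1 and −0.17 for Sesn3. With replicates 3 and 4 alone the change was −0.20 for Gpx7 and −0.14 for Taldo1. With limma on log2(TPM + 1), not rescaled without Gm23935, the change was −0.094 for Hmox1, −0.30 for Gss, −0.17 for Gpx7 and −0.18 for Taldo1. With the block and without pair 2 it was −0.13 for Gss, −0.21 for Gpx7 and −0.048 for Taldo1. With the block and without pair 3 it was 0.0029 for Gclc, 0.043 for G6pdx, −0.076 for Taldo1 and −0.0086 for Sesn3. With the block and without pair 4 it was 0.011 for Tkt, 0.014 for Fth1, 0.14 for Gstt1 and −0.062 for Sesn3. Over the 8 fits without 1 library the change ranged from −0.27 to 0.017 for Gclc, from −0.012 to 0.56 for Gpx7, from −0.40 to 0.67 for Hmox1, from −0.18 to 0.041 for Prdx1, from −0.054 to 0.13 for Sesn3, from −0.054 to 0.18 for Taldo1 and from −0.13 to 0.012 for Tkt. The cause was not tested. The other 13 of the 28 named and tested members kept their sign in every alternative run. Mgst2 lay near the limit that a count of 0 allows in every library.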
